A study of Homo sapiens with 3 samples.

Results

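The translation factor genes described here are the human protein-coding genes of GENCODE 44 whose symbols begin with EIF or EEF followed by a digit. The rule found 71 genes, and 70 of them had a transcription start site (TSS) of a protein-coding transcript, among 19689 such genes in all. The remaining gene, EEF1E1-BLOC1S5, is a readthrough locus without a protein-coding transcript. Chromatin immunoprecipitation sequencing (ChIP-seq) had been carried out in HuCCT1, an established cell line of cholangiocarcinoma (CCA), a cancer of the bile ducts. The 3 libraries were made with antibodies against Strawberry Notch 1 (SBNO1), against TAF4, one of the TATA-box binding protein associated factors that make up TFIID, and with IgG as control, each in cells without a further treatment named in the labels. Each library was a pool of immunoprecipitates from several biological replicates, so there was 1 library per antibody, no spread between replicates could be measured and no test was run. The deposited peak lists held 16147 peaks for SBNO1, 12763 for TAF4 and 1598 for IgG, and since they hold no read numbers, the sequencing depth is unknown. Peak lists hold no expression values either, so the cell line was not checked against marker genes. At promoters, by the 1 kb rule given below, these lists held 4791 SBNO1 and 6042 TAF4 peaks, a minority of each list. They reached 5057 and 6280 protein-coding genes. The paper reports far fewer promoters bound by each protein, and it places most peaks of both near a TSS. The shares below therefore describe the deposited lists and not the promoters that the paper counts as bound. The reason for this difference was not tested.

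Eukaryotic initiation factors (eIFs) bring the small ribosomal subunit, the initiator tRNA and the capped mRNA together, scan for the start codon and let the large subunit join. Elongation factors (eEFs) then deliver aminoacyl-tRNAs and move the ribosome along the mRNA. Initiation is held back in stress by kinases that phosphorylate eIF2 and by proteins that sequester the cap-binding factor eIF4E. Many mRNAs of the translation machinery begin with a stretch of pyrimidines at the very first base, known as the 5′ terminal oligopyrimidine motif, through which their own translation follows growth signals.

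A gene was counted as having a peak when the nearest edge of a peak lay within 1 kb of any of its protein-coding TSS, and every gene in reach of a peak was counted. By this rule 45 of 70 translation factor genes had an SBNO1 peak, which is 64.3% with an exact 95% interval of 51.9% to 75.4%, beside 25.7% of all protein-coding genes. A TAF4 peak lay at 52 of 70 genes, or 74.3% (62.4% to 84%), beside 31.9% of all genes. An IgG peak lay at 1 of 70 genes, EEF1A1, which is 1.43% (0.0362% to 7.7%), beside 1.41% of all genes. The SBNO1 and TAF4 shares of the translation factor genes were thus each more than 2 times the background. Their IgG share was close to that of all genes, but it rests on 1 gene, and its interval also holds 2 times the background. Intervals here and in what follows are Clopper-Pearson intervals and cover counting error over genes only.

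Both proteins had a peak at 42 of the 70 genes, which is 60% (47.6% to 71.5%) beside 22.6% of all genes. These 42 genes made up 93.3% of the translation factor genes with SBNO1 and 80.8% of those with TAF4. Over all protein-coding genes the shared genes were 88% of the SBNO1 list and 70.9% of the TAF4 list. SBNO1 without TAF4 was found at 3 genes (EIF1B, EIF3L and EIF4G3), or 4.29% beside 3.08% of all genes, a share near the background. TAF4 without SBNO1 was found at 10 genes, or 14.3% (7.07% to 24.7%) beside 9.29%. These were EIF1AX, EIF2S3, EIF2B3, EIF3J, EIF3K, EIF4E2, EIF4EBP2, EEF1D, EEF2 and EEF1AKMT2. The remaining 15 genes had neither protein, which is 21.4% (12.5% to 32.9%) beside 65% of all genes. The plot of promoter peaks by gene shows all 70 genes with the score of their strongest peak.

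**Figure D1:**
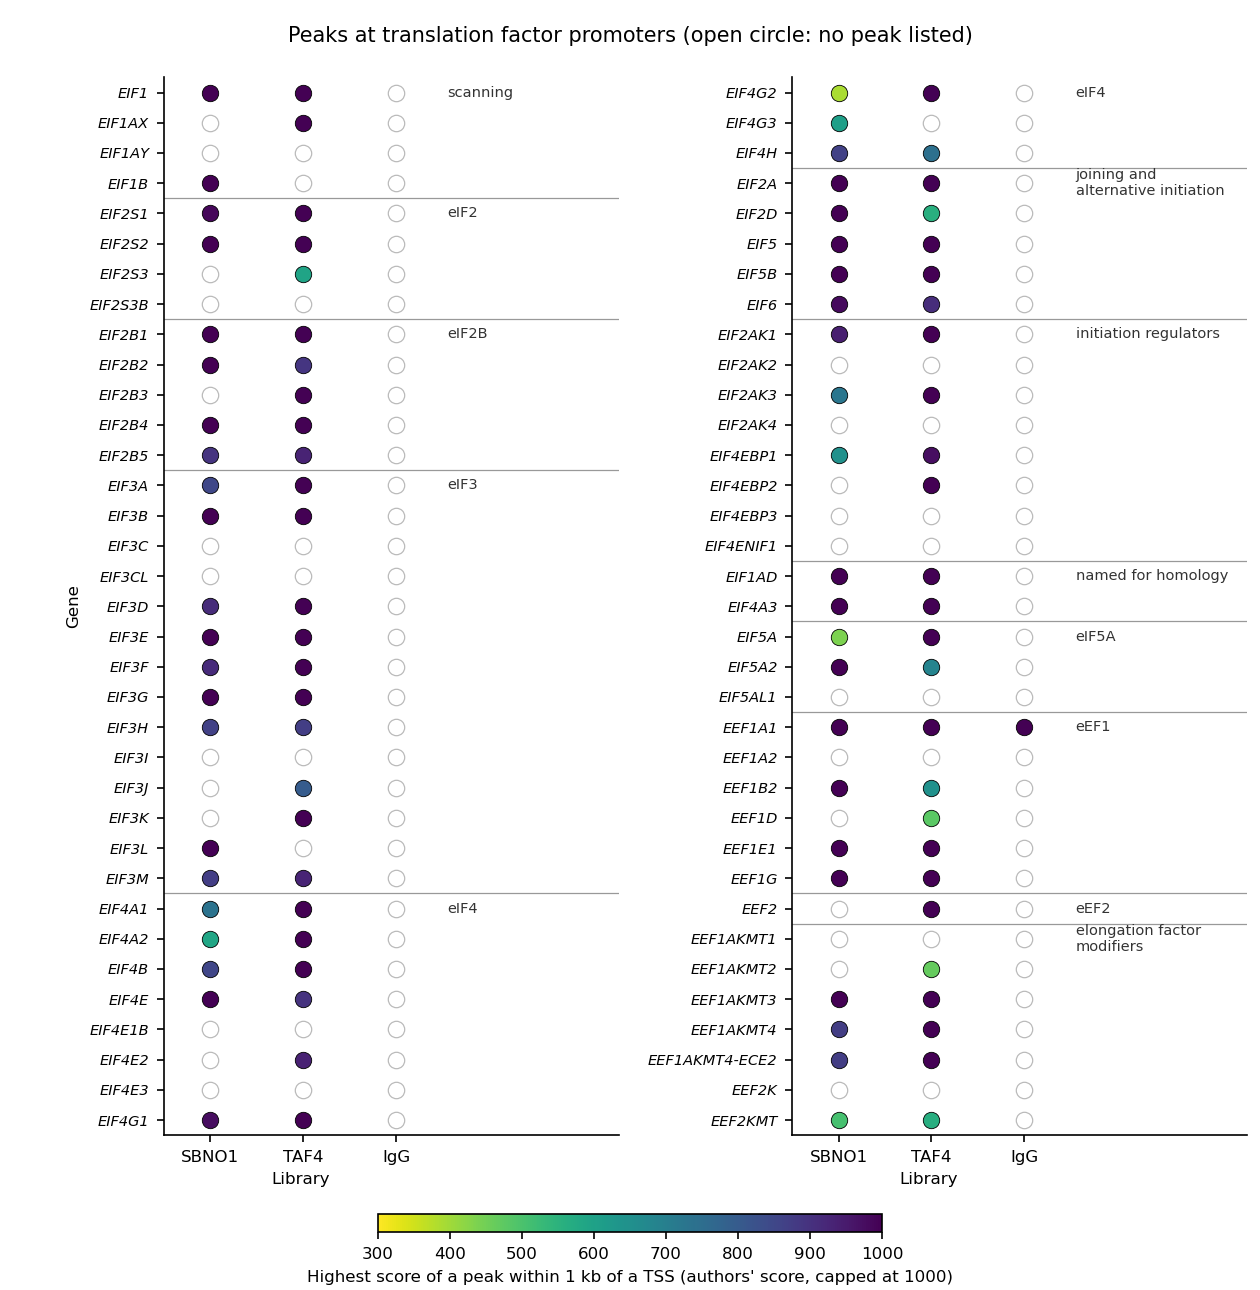
Each row is a translation factor gene, sorted by role, and each column a library (SBNO1, TAF4, IgG). A filled circle is coloured by the highest score of a peak within 1 kb of a TSS, in the authors' units capped at 1000, and an open circle marks a gene with no listed peak. SBNO1 circles are filled at 45 genes and TAF4 circles at 52, and the IgG column is filled at EEF1A1 alone.

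By class, the 43 initiation factor genes had SBNO1 at 30 (69.8%, 53.9% to 82.8%) and TAF4 at 33 (76.7%, 61.4% to 88.2%). The 10 genes grouped as elongation factors had SBNO1 at 6 (60%, 26.2% to 87.8%) and TAF4 at 8 (80%, 44.4% to 97.5%). The eIF5A genes were counted among them, and so, by its symbol, was EEF1E1, which had both proteins. Among the 15 genes of regulators and modifying enzymes, SBNO1 was present at 7 (46.7%, 21.3% to 73.4%) and TAF4 at 9 (60%, 32.3% to 83.7%). The SBNO1 interval of these 15 genes held the 25.7% of all genes, and their TAF4 interval began just above the 31.9% of all genes. EIF1AD and EIF4A3, which are named for homology and had both proteins, were counted in no class. The intervals of the 3 classes overlapped, so no order among them can be read at these numbers. Other families of the translation machinery were measured in the same way. Cytosolic ribosomal protein genes had SBNO1 at 87.4% (78.5% to 93.5%) and TAF4 at 93.1% (85.6% to 97.4%) of 87 genes, which were higher shares than those of the translation factor genes, with intervals that did not overlap. Mitochondrial ribosomal protein genes (67.9% and 73.1% of 78) and aminoacyl-tRNA synthetase genes (64.9% and 86.5% of 37) had intervals that overlapped those of the translation factor genes. The IgG shares of these families were 3.45%, 5.13% and 2.7%.

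**Figure D2:**
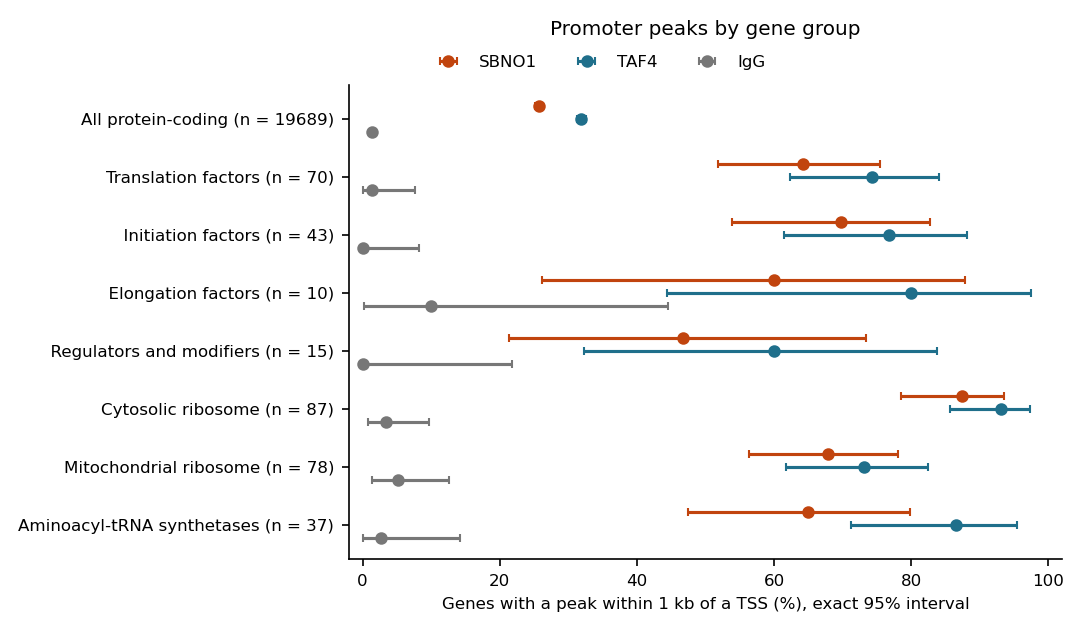
Points give the percentage of genes with a peak within 1 kb of a TSS for SBNO1, TAF4 and IgG, and bars the exact 95% interval. All protein-coding genes stand at 25.7% for SBNO1 and 31.9% for TAF4, the translation factor genes at 64.3% and 74.3%, and the cytosolic ribosomal protein genes at 87.4% and 93.1%.

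The sequences just upstream of selected promoters are printed here, since the 3 libraries are compared at these positions. Each run holds the 150 bases directly before the Ensembl canonical TSS, read 5′ to 3′ along the gene from GRCh38. EIF1, EIF2B4, EIF3G and EIF4E had both proteins, EEF2 and EIF4EBP2 had TAF4 alone, and EEF2K and EIF2AK4 had neither. The genes were picked as examples after their values were seen, from those whose window held no more than 30 annotated exon bases. Capitals mark exact matches on either strand to the motifs spelled out further on. The windows are chr17:41688735-41688884 (EIF1, plus strand), chr2:27370339-27370488 (EIF2B4, minus strand), chr19:10119900-10120049 (EIF3G, minus strand), chr4:98929134-98929283 (EIF4E, minus strand), chr19:3985464-3985613 (EEF2, minus strand), chr10:70403995-70404144 (EIF4EBP2, plus strand), chr16:22206128-22206277 (EEF2K, plus strand) and chr15:39933965-39934114 (EIF2AK4, plus strand).
EIF1: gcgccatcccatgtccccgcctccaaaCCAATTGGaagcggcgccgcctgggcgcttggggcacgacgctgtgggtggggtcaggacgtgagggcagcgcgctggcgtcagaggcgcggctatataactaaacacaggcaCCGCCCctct
EIF2B4: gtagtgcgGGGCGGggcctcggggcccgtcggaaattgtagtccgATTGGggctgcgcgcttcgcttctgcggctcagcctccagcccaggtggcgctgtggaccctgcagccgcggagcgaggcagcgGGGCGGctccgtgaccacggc
EIF3G: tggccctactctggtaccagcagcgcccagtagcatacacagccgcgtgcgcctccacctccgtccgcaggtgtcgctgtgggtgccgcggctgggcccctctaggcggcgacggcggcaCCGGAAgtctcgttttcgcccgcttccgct
EIF4E: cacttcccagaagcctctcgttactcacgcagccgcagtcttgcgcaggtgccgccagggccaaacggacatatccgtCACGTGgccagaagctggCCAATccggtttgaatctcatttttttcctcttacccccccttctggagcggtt
EEF2: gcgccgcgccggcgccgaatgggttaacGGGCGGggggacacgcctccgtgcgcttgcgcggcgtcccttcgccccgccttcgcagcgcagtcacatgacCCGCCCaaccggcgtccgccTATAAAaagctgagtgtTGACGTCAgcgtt
EIF4EBP2: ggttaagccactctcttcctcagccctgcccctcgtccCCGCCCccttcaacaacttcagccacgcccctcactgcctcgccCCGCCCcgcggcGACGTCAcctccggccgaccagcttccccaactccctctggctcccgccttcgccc
EEF2K: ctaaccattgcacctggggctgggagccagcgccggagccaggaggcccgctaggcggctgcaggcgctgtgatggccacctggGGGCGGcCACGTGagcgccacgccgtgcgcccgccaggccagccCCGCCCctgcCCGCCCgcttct
EIF2AK4: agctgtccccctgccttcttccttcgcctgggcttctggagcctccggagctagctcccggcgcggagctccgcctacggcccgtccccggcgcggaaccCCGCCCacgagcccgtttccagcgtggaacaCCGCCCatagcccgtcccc

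The scanning factors keep the small subunit open on the mRNA until the start codon is met. EIF1, which encodes the factor that checks the start codon, had the widest SBNO1 peak of all translation factor genes, at chr17:41688523-41689598 with 1076 bp and the highest score of 1000. A second SBNO1 peak upstream of it, at chr17:41687936-41688264, scored 729. TAF4 covered the same start from chr17:41688311-41689641 over 1331 bp with a score of 1000, the widest TAF4 peak at a translation factor gene. The paralogue EIF1B had an SBNO1 peak at chr3:40309511-40309841 with a score of 1000 and 331 bp, centred 31 bp upstream of the TSS, and no TAF4 peak. EIF1AX, the X-linked gene of eIF1A, was the reverse case, with a TAF4 peak at chrX:20141835-20142165 (score 1000) and no SBNO1 peak. Its Y-linked copy EIF1AY had no peak in any of the 3 libraries, and its nearest SBNO1 and TAF4 peaks were 4825437 bp and 8828034 bp away. Whether chromosome Y was present or covered in these libraries was not tested. The promoter windows of EIF1AX and EIF1AY, 300 bases each, matched at 22.7% of positions without gaps.

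The heterotrimer eIF2 carries the initiator tRNA. Its alpha subunit gene EIF2S1 and its beta subunit gene EIF2S2 had both proteins. At EIF2S2 the SBNO1 peak was chr20:34112173-34112549 and the TAF4 peak chr20:34112067-34112471, each with a score of 1000. EIF2S1 scored 988 for SBNO1 and 1000 for TAF4, and its start lies opposite that of ATP6V1D, a proton pump subunit gene in reach of the same peaks. The gamma subunit gene EIF2S3 had only a TAF4 peak, chrX:24054196-24054995, with a score of 590 over 800 bp. EIF2S3B, an autosomal copy whose canonical transcript has 1 exon, had no peak. The promoter windows of EIF2S3 and EIF2S3B were identical at 94% of 300 positions, and the part of reads that fit either copy in these calls was not tested.

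The exchange factor eIF2B reloads eIF2 with GTP and is the target of the stress pathway that acts through eIF2. All 5 of its subunit genes had a TAF4 peak (100%, 47.8% to 100%), beside 31.9% of all genes. An SBNO1 peak was present as well at 4 of them (80%, 28.4% to 99.5%), beside 22.6% of all genes with both proteins. The strongest SBNO1 peak by score and width was at EIF2B2, chr14:75002510-75002999, and scored 1000, while TAF4 scored 892 at chr14:75002483-75003022. EIF2B1 and EIF2B4 scored 1000 in both libraries. EIF2B5 scored 896 for SBNO1 and 932 for TAF4. EIF2B3 had TAF4 alone, with a score of 1000 over 258 bp. The starts of EIF2B1 and EIF2B4 lie opposite those of GTF2H3, a TFIIH subunit gene, and SNX17, a sorting nexin gene, and the peaks reached both members of each pair.

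The largest initiation factor, eIF3, holds the scanning complex together. Of its 14 genes, 9 had SBNO1 (64.3%, 35.1% to 87.2%, beside 25.7% of all genes) and 10 had TAF4 (71.4%, 41.9% to 91.6%, beside 31.9%). Both proteins were at 8 (57.1%, 28.9% to 82.3%, beside 22.6%), namely EIF3A, EIF3B, EIF3D, EIF3E, EIF3F, EIF3G, EIF3H and EIF3M. At EIF3G the peaks were among the narrowest, chr19:10119871-10120068 for SBNO1 with 198 bp and chr19:10119866-10120064 for TAF4 with 199 bp, both with a score of 1000. Among the SBNO1 peaks of the group at the score cap of 1000, the widest, with 300 bp, was assigned to EIF3E at chr8:108443444-108443743, where an upstream alternative start of EIF3E lies near the start of EMC2, a membrane protein insertase subunit gene. The canonical EIF3E start had its own peaks in both libraries, each with a score of 1000. EIF3H also had a second pair of peaks at an alternative start, near UTP23, with scores of 675 for SBNO1 and 872 for TAF4, beside 864 and 694 at its canonical start.

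EIF3L was the eIF3 gene with SBNO1 and no TAF4, at chr22:37849251-37849464 with a score of 1000 over 214 bp, a peak that also reached ANKRD54. EIF3J and EIF3K had TAF4 alone, with scores of 800 and 1000. EIF3C, EIF3CL and EIF3I had neither. EIF3I lies opposite TMEM234, and its nearest SBNO1 peak was 41047 bp and its nearest TAF4 peak 41315 bp from a TSS. EIF3C and EIF3CL are near-identical copies on chromosome 16, and their promoter windows matched at 100% of 300 positions. Short reads from that window cannot be told apart between the copies, and their part in the absence of a listed peak was not tested.

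The eIF4 genes encode the factors that read the cap and unwind the mRNA. EIF4E, the cap-binding protein, had 2 SBNO1 and 2 TAF4 peaks. The SBNO1 peak over its start, chr4:98929082-98929362, scored 1000, and the TAF4 peak there, chr4:98929055-98929565, scored 898. The upstream peaks, chr4:98929933-98930264 for SBNO1 and chr4:98929927-98930182 for TAF4, scored 628 and 893. The related gene EIF4E2 had only a TAF4 peak (chr2:232550468-232550728, score 935), which also reached TIGD1. EIF4E1B and EIF4E3 had no peak of either protein. At EIF4E1B the nearest TAF4 peak was 3824 bp away, the shortest such distance among the 15 genes with neither protein.

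The helicase genes EIF4A1 and EIF4A2 and the exon junction helicase gene EIF4A3, named for its homology, had both proteins. The SBNO1 scores were 734 at EIF4A1 (chr17:7572268-7572949), 586 at EIF4A2 (chr3:186782612-186783370) and 1000 at EIF4A3 (chr17:80147052-80147626). TAF4 scored 1000 at all 3, at chr17:7572352-7572881, chr3:186782891-186783691 and chr17:80147070-80147580. The 3 helicase genes thus differed in the SBNO1 score, with TAF4 at the cap throughout. EIF4A2 also had the largest offset between overlapping peaks, with the SBNO1 centre 300 bp upstream of the TAF4 centre. The helicase cofactor genes EIF4B and EIF4H had SBNO1 scores of 855 and 865 and TAF4 scores of 1000 and 745.

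Among the scaffold genes, EIF4G1 had both proteins, with scores of 978 (chr3:184314344-184314746) for SBNO1 and 1000 (chr3:184314377-184314707) for TAF4. EIF4G2, which encodes a scaffold that does not bind eIF4E, had the lowest SBNO1 score of any translation factor gene peak, 390 at chr11:10808589-10809233, under a TAF4 peak of 1000 at chr11:10808821-10809197. EIF4G3 had SBNO1 alone, at chr1:21176783-21177195 with a score of 608.

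All 5 genes of subunit joining and alternative initiation had both proteins (100%, 47.8% to 100%), beside 22.6% of all genes. EIF2A, whose product can bring initiator tRNA to some mRNAs, had the widest of these SBNO1 peaks at chr3:150546416-150547116, and a TAF4 peak at chr3:150546240-150547164, both with a score of 1000 and both in reach of SERP1. EIF5, the GTPase-activating protein of eIF2, scored 1000 in both libraries. EIF5B, the GTPase of subunit joining, had its only SBNO1 peak 750 bp upstream of the nearest TSS, in reach of TXNDC9, whereas TAF4 had 1 peak at that place and 1 over the EIF5B start. EIF6, which keeps free large subunits apart from small ones, scored 983 for SBNO1 and 911 for TAF4. EIF2D scored 1000 for SBNO1 and 559 for TAF4.

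The 8 regulators of initiation had SBNO1 at 3 genes (37.5%, 8.52% to 75.5%) and TAF4 at 4 (50%, 15.7% to 84.3%). The other 4 genes had neither (50%, 15.7% to 84.3%). These intervals held the shares of all genes, which were 25.7%, 31.9% and 65%. The eIF2 kinases divided evenly. EIF2AK1 (HRI, activated by loss of heme) had SBNO1 at chr7:6059145-6059360 with a score of 942 and TAF4 at chr7:6059110-6059317 with 1000. EIF2AK3 (PERK, the kinase of endoplasmic reticulum stress) had SBNO1 at chr2:88627494-88627903 with 716 and TAF4 at chr2:88627266-88628225 with 1000. It had a second pair of peaks near RPIA, at an alternative start about 64 kb upstream, with scores of 726 and 878. EIF2AK2 (PKR, the sensor of double-stranded RNA) and EIF2AK4 (GCN2, the sensor of uncharged tRNA) had neither protein. The nearest peaks to EIF2AK2 were 74309 bp away in both libraries, and the nearest SBNO1 peak to EIF2AK4 was 8706 bp away.

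The eIF4E-binding proteins also differed among themselves. EIF4EBP1 had both proteins, but only downstream of its start, 845 bp away for SBNO1 (chr8:38031379-38031811, score 649) and 843 bp away for TAF4 (chr8:38031377-38031671, score 973). EIF4EBP2 had a TAF4 peak over its start (chr10:70403993-70404203, score 1000) and no SBNO1 peak. EIF4EBP3 had neither, as did EIF4ENIF1, the gene of the transporter that carries eIF4E into the nucleus. EIF1AD, named for its likeness to eIF1A, had both proteins with scores of 1000 (SBNO1 at chr11:66001809-66002571 and TAF4 at chr11:66002070-66002762), in a promoter shared with BANF1.

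The elongation factor eEF1A delivers aminoacyl-tRNAs to the ribosome, and its gene EEF1A1 is among the most highly transcribed genes of dividing cells. SBNO1 covered the EEF1A1 start at chr6:73520963-73521540 and TAF4 at chr6:73520795-73521622, each with a score of 1000. The control antibody also had a peak there, chr6:73521051-73521280, with 230 bp and a score of 1000, which lay wholly inside both of the others and ended 19 bp upstream of the TSS. The peak lists therefore do not set EEF1A1 apart from the IgG library. All of these scores were at the cap and no read numbers are given, so enrichment over IgG at this start cannot be judged. At every other translation factor gene the nearest IgG peak was at least 22155 bp away, the distance at EIF4A3. EEF1A2, the paralogue of neurons and muscle, had no peak of any library, with the nearest SBNO1 peak at 38285 bp and the nearest TAF4 peak at 21450 bp.

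The exchange factor subunits of eEF1 recharge eEF1A with GTP. EEF1G, the gamma subunit gene, had the widest SBNO1 peak at the cap in this group, chr11:62573633-62574357 with 725 bp, and a TAF4 peak at chr11:62573633-62574425, also with a score of 1000. EEF1B2 scored 1000 for SBNO1 and 649 for TAF4 in a promoter opposite NDUFS1, a complex I subunit gene. EEF1D had TAF4 alone with a score of 480, opposite TIGD5. EEF1E1, which encodes a small protein of the multi-synthetase complex, scored 1000 for both proteins.

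EEF2, which moves the ribosome by a codon in each round of elongation, had TAF4 at chr19:3985369-3985638 with a score of 1000 and no SBNO1 peak. Its kinase gene EEF2K had neither protein, with the nearest SBNO1 and TAF4 peaks 15106 bp and 15282 bp away. EIF5A, the hypusinated factor that helps the ribosome through proline runs, had an SBNO1 peak of score 438 at chr17:7306873-7307617 beneath a TAF4 peak of score 1000 at chr17:7306860-7307649. A further TAF4 peak of score 543 lay downstream at chr17:7308888-7309409. EIF5A2 had both proteins, yet 937 bp (SBNO1, chr3:170909581-170909802, score 1000) and 934 bp (TAF4, chr3:170909578-170909876, score 683) upstream of the nearest TSS. EIF5AL1, a copy with 1 exon, had no peak.

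Of the 7 genes of enzymes that modify elongation factors, 4 had both proteins (57.1%, 18.4% to 90.1%), an interval that held the 22.6% of all genes. EEF1AKMT3, a lysine methyltransferase gene, had SBNO1 at chr12:57772051-57772250 and TAF4 at chr12:57771775-57772330, both with a score of 1000, in a region shared with METTL1. EEF1AKMT4 and its readthrough gene EEF1AKMT4-ECE2 were counted as separate genes but shared all their peaks, opposite ALG3, with scores of up to 876 for SBNO1 and 1000 for TAF4. EEF2KMT scored 507 and 561. EEF1AKMT2 had TAF4 alone, with the lowest TAF4 score of any translation factor gene peak, 466. EEF1AKMT1 had neither.

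A peak covered the canonical TSS of 36 of the 45 genes with SBNO1 and of 49 of the 52 genes with TAF4. The centres of these covering peaks had a median of 94 bp upstream for SBNO1 and 91 bp upstream for TAF4. Of these centres, 31 of 36 and 43 of 49 lay upstream. Only peaks over the TSS entered these medians, so their likeness is partly set by that choice. In all, 51 distinct SBNO1 peaks and 60 distinct TAF4 peaks lay within 1 kb of a start of these genes. Of the 51 SBNO1 peaks, 46 overlapped a TAF4 peak, which is 90.2% (78.6% to 96.7%) beside 83.8% of all 4791 SBNO1 peaks at promoters. Of the 60 TAF4 peaks, 46 overlapped an SBNO1 peak, which is 76.7% beside 66.3% of all 6042. Across the 46 overlapping pairs the centres were within 100 bp of each other in 39. Pairs without overlap could not enter this count, and its value over all promoters was not computed.

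The score reached its cap of 1000 in 24 of the 51 SBNO1 peaks (47.1%, beside 32.2% at all promoters) and in 37 of the 60 TAF4 peaks (61.7%, beside 50.1%). In the 46 pairs TAF4 scored higher in 21, SBNO1 scored higher in 8, and both were at the cap in 17. The score is a value of each library's own list, and its scaling is not given, so a higher number in one library than in the other is not a measured difference in binding. The median width was 387 bp for SBNO1 and 423 bp for TAF4 (420 bp and 418 bp at all promoters).

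**Figure D3:**
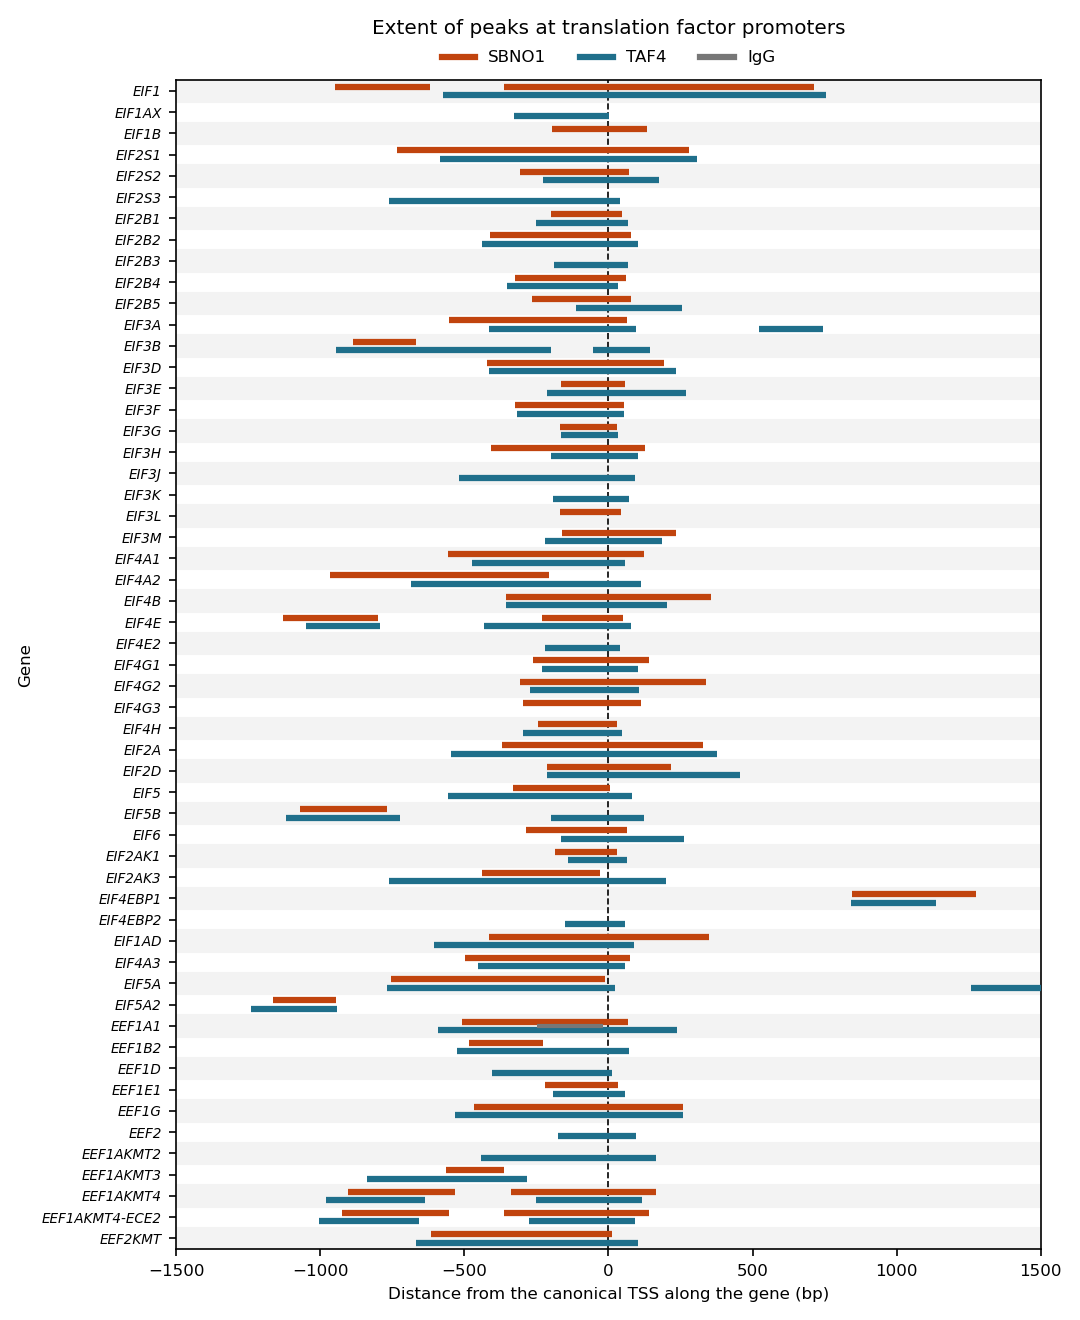
Horizontal lines show the extent of SBNO1, TAF4 and IgG peaks around the canonical TSS (dashed line) of the 55 translation factor genes with an SBNO1 or TAF4 peak, in bp along the direction of transcription. Most lines cross or end just beyond the start, whereas those of EIF4EBP1, EIF5A2 and EEF1AKMT3 lie away from it in both libraries. Peaks at distant alternative starts fall outside the axis and are not drawn.

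Shared promoters limit the assignment of a peak to a gene. The canonical TSS of another protein-coding gene lay on the opposite strand within 1 kb upstream of the canonical TSS at 13 of the 70 genes. Of these, 9 had both proteins, beside 42 of all 70. Both counts hold EEF1AKMT4 and its readthrough gene EEF1AKMT4-ECE2 separately, though both lie opposite ALG3. An SBNO1 peak reached another gene at 16 translation factor genes and a TAF4 peak at 18. At 13 and 15 of them, every peak counted for the translation factor gene was also in reach of another gene. The shares of all protein-coding genes with such a neighbour or with such peaks were not computed. When each peak was given only to the gene of its nearest TSS, 38 genes kept SBNO1 (54.3%, beside 21.8% of all genes) and 45 kept TAF4 (64.3%, beside 27.2%).

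Sequence motifs were counted as exact matches on either strand in 300 bases at the canonical TSS (250 before and 50 from the start on). The motifs were ETS (CCGGAA), KLF/SP (GGGCGG), NFY (CCAAT), the TATA box (TATAAA), AP-1 (TGACTCA), the E-box (CACGTG), NRF1 (GCGCATG), YY1 (AAGATGG) and the cyclic AMP response element CRE (TGACGTC), and none of these letter strings contains another. The E-box was found in 17 of 70 translation factor promoters, or 24.3% (14.8% to 36%), beside 8.75% of all promoters. In the 42 with both SBNO1 and TAF4 it was found in 26.2% (13.9% to 42%), beside 11.1% of all such promoters. In the 15 with neither it was found in 20% (4.33% to 48.1%), an interval that held the 7.61% of all such promoters. ETS letters were found in 41.4% (29.8% to 53.8%), beside 22.7% of all promoters. In the 42 with both proteins they were found in 45.2% (29.8% to 61.3%), an interval that held the 37.5% of all such promoters. KLF/SP letters were found in 81.4% (70.3% to 89.7%), beside 61.6% of all promoters. That interval also held the 72.9% of all promoters with both proteins. Among the 55 translation factor genes with a peak of either protein the share was 78.2% (65% to 88.2%). In 200 bp at the peak centre of these 55 genes it was 61.8%, beside 59.9% at all promoters with a peak, so an excess was not seen there. The shares of NFY (40% beside 36.1%), the TATA box (5.71% beside 9.65%), AP-1 (2.86% beside 3.56%), NRF1 (8.57% beside 5.82%), YY1 (8.57% beside 6.44%) and CRE (5.71% beside 4.64%) had intervals that held the share of all promoters. The median GC content was 64.3% in translation factor promoters and 63.7% in all promoters.

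Within the translation factor genes, KLF/SP letters stood in 30 of 42 promoters with both proteins (71.4%, 55.4% to 84.3%), near the 72.9% of all such promoters. They stood in 14 of 15 with neither (93.3%, 68.1% to 99.8%), beside 55.1% of all such promoters. They also stood in all 10 with TAF4 alone, a kind for which no share over all promoters was computed. NFY letters stood in 52.4% (36.4% to 68%) of those with both and in 20% (4.33% to 48.1%) of those with neither, and both intervals held the shares over all promoters of the same kind, 43.9% and 32.4%. NRF1 and YY1 letters were found in 14.3% (5.43% to 28.5%) each of the promoters with both proteins, beside 8.25% and 12% of all such promoters. In the 15 with neither they were not found (0% to 21.8%), beside 4.41% and 4.3% of all such promoters, so these shares were near the background. In the printed runs, EIF1 holds overlapping NFY matches on both strands that begin at positions -123 and -120, counted back from -1 at the base before the TSS. EEF2 holds a TATA box at -30 and CRE matches on both strands at -13 and -12, whereas EIF3G holds an ETS match at -30. EEF2K, with no peak, holds 3 KLF/SP matches and an E-box, and EIF2AK4 holds 2 KLF/SP matches. A match is a description of letters and not of a bound site.

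**Figure D4:**
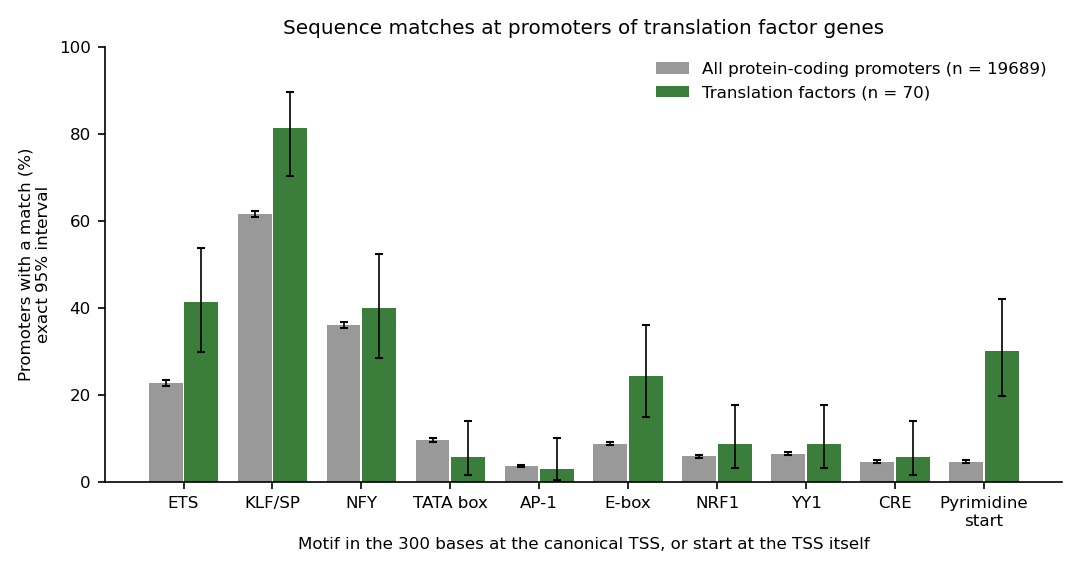
Bars give the percentage of promoters with an exact match to each motif in the 300 bases at the canonical TSS, and in the last pair the percentage whose TSS is a C followed by at least 4 pyrimidines, for all protein-coding promoters and for translation factors. Error bars are exact 95% intervals. The translation factor bar is higher, with intervals that do not overlap, for ETS, KLF/SP, the E-box and the pyrimidine start.

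A pyrimidine start, scored as a C at the canonical TSS followed by at least 4 further C or T, was found in 21 of 70 translation factor genes, or 30% (19.6% to 42.1%). It was found in 4.63% of all protein-coding genes and in 69% (58.1% to 78.5%) of cytosolic ribosomal protein genes. The eIF3 complex held 10 of the 21 (EIF3A, EIF3C, EIF3CL, EIF3D, EIF3E, EIF3F, EIF3H, EIF3K, EIF3L and EIF3M), eEF1 held 4 (EEF1A1, EEF1A2, EEF1B2 and EEF1D), and EEF2 was another. The others were EIF2S3, EIF2S3B, EIF4A2, EIF4B, EIF2A and EIF2D. None of the genes of scanning factors, eIF2B, eIF5A, regulators or modifying enzymes had one. The start was found in 12 of 42 genes with both proteins, in 4 of 10 with TAF4 alone, in 1 of 3 with SBNO1 alone and in 4 of 15 with neither, and these shares had overlapping intervals.

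The starts of 11 of these genes are shown because the run of pyrimidines can be read directly. Each holds 10 bases before the TSS and 20 from it on, GRCh38, 5′ to 3′ along the gene, and capitals mark the run that begins at the TSS. The windows are chr16:28711454-28711483 (EIF3C, plus strand), chr16:28403822-28403851 (EIF3CL, minus strand), chr22:36529147-36529176 (EIF3D, minus strand), chr11:7987327-7987356 (EIF3F, plus strand), chr19:38619178-38619207 (EIF3K, plus strand), chr12:53006446-53006475 (EIF4B, plus strand), chrX:24054946-24054975 (EIF2S3, plus strand), chr12:10505880-10505909 (EIF2S3B, plus strand), chr6:73521013-73521042 (EEF1A1, minus strand), chr2:206159885-206159914 (EEF1B2, plus strand) and chr19:3985444-3985473 (EEF2, minus strand). The EIF3C and EIF3CL runs are the same, and EEF1B2 has the longest of those shown, with 16 pyrimidines.
EIF3C: gacccgccttCTCTCTCggcgtttccgctg
EIF3CL: gacccgccttCTCTCTCggcgtttccgctg
EIF3D: cgcatgtttcCTCTTTTCCTggtttctcaa
EIF3F: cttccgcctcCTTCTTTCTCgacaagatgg
EIF3K: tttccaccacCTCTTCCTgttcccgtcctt
EIF4B: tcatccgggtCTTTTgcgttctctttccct
EIF2S3: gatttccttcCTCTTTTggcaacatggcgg
EIF2S3B: gactttcttcCTCTTTTggcaacatggcgg
EEF1A1: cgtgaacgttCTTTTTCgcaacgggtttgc
EEF1B2: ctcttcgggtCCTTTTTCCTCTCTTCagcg
EEF2: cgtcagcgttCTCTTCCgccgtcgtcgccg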

How the data were processed

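ChIP-seq peak lists of 3 libraries (SBNO1, TAF4 and IgG in HuCCT1 cells) were used, grouped by the antibody named in the labels. Per the study's methods, short single-end reads from pooled immunoprecipitates were processed with ktrim for trimming, bowtie2 for alignment to GRCh38 and normR for peak calling. The submitters' processing notes name Bowtie2 (2.5.4), Genrich (0.6.1) and GRCh38.p14, so the sources differ on the peak caller. The peak threshold and the use of IgG in the calls are not given in the sources used here. Each peak carries a score deposited by the authors as a whole number of at most 1000, with no stated scaling. The lists held no signal or summit column, and no peak was filtered.

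TSS were taken from GENCODE 44 (78567 sites of 19689 genes), and the window was 1 kb. Ensembl canonical transcripts gave the TSS for positions and sequences. Sequences were read from GRCh38. Of the translation factor genes, 56 had a RefSeq promoter entry (GRCh38), and 53 of these were identical to the window used. Shares carry exact Clopper-Pearson intervals (Python 3.11.15, scipy 1.17.1), and counting was tested on simulated data. Every gene was named with its class. Coordinates were printed for EIF1, for the highest-scoring SBNO1 peak of each role group (the wider where tied), for genes with SBNO1 and no TAF4, for the gene with an IgG peak and for paralogue sets, and for others as examples. The genes, role groups, motifs and families were chosen with earlier results of these data known, and the pyrimidine start after these data were seen.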

Additional observations from a re-analysis of the deposited data

How the results depend on the processing

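No paired analysis was possible because there was only 1 sample for every antibody. Of 68 alternative values, 59 stayed within 1.5 times the main count, or within the interval of the main share. Over all settings the number of translation factor genes with SBNO1 was between 23 and 46 and with TAF4 between 35 and 53. Where a peak had to cover a TSS, the IgG count was 0. With peaks at or above the median score of their list, SBNO1 had 33 genes (47.1% beside 13.1% of all genes) and TAF4 had 37 (52.9% beside 19.6%). Both proteins were then at 23 genes, and SBNO1 without TAF4 at 10. With only peaks at the score cap, an alternative added after seeing the data, SBNO1 had 23 genes (32.9% beside 9.14% of all genes) and TAF4 had 35 (50% beside 17.3%). Of the translation factor genes, 16 then had both, 7 had SBNO1 without TAF4 and 19 had TAF4 without SBNO1. Which of these genes have a single protein therefore depends on the score. The shares of all genes with both or a single protein under these 2 filters were not computed, so these counts have no background. In 200 bp at the peak centre of the 55 genes with a peak, KLF/SP letters stood in 61.8% (59.9% at all promoters with a peak) and AP-1 in 0. In those windows the E-box stood in 23.6% beside 8.03%, and YY1 letters stood in 3.64% beside 6.48%, below the share of all promoters where the main window was above it.

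With SBNO1 limited to as many peaks as TAF4, SBNO1 had 39 genes (55.7% beside 20.4% of all genes). The share of all genes was 25.7% without this limit, so it fell as well. The 6 translation factor genes lost were EEF2KMT, EIF4A2, EIF4EBP1, EIF4G2, EIF4G3 and EIF5A. With peaks that overlap an IgG peak left out, EEF1A1 was the gene lost in both libraries. The depth of the libraries is unknown, so a gene without a listed peak cannot be called unbound, and its absence was not measured against a replicate.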

Other observations

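Peaks also overlapped the bodies of some translation factor genes by at least 1 bp, over 1 kb from any of their protein-coding TSS. SBNO1 had 8 such peaks in 7 genes, TAF4 had 4 in 4 genes, and IgG had 0. EIF3K, EIF4G1, EIF4G3 and EEF1G had one of each protein or more. EIF2D, EIF4EBP1 and EEF1E1 had SBNO1 alone. The share of all protein-coding genes with such body peaks was not computed, so the counts cannot be read as particular to these genes. At EIF4G3, whose start had SBNO1 and no TAF4, the TAF4 peak inside the gene (chr1:21022340-21022714) scored 908. At EIF3K, the SBNO1 peak (chr19:38636938-38637310, score 1000) and the TAF4 peak lay across the end of the gene at 38636955 and mostly beyond it. Among the 15 genes with neither protein at a start, the median distance to the nearest peak was 74309 bp for SBNO1 and 67296 bp for TAF4.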
